A study of Mus musculus with 28 samples.

Results

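The genes described here encode the nuclear-encoded proteins of the mitochondrial respiratory chain and ATP synthase, 93 of the 45706 gene rows in each deposited expression table. They were taken by name alone: rows annotated as protein-coding whose symbol begins with Ndufa, Ndufb, Ndufc, Ndufs, Ndufv, Uqcr, Cox4 to Cox8 or Atp5, or is Sdha, Sdhb, Sdhc or Sdhd. The rule gave 38 genes of complex I, 4 of complex II, 8 of complex III, 18 of complex IV and 17 of complex V, plus 8 Ndufaf genes, whose products assemble complex I without being part of it and which are counted apart. Of these, 85 had a value above 0 in all 28 libraries and entered the tests, and the 8 that did not are described by their levels only.

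The libraries came from mIMCD-3 cells, a kidney epithelial line established from the inner medullary collecting duct of a mouse with an SV40 transgene. Total RNA was sequenced from the polyclonal stock, from the monoclonal line WT5, grown from 1 sorted cell of that stock, and from 5 subclones, each grown from 1 sorted cell of WT5 over about 6 weeks, with 4 libraries per line. All lines were wild type, were kept in DMEM:F12 with 10% fetal bovine serum and were harvested 4 days after confluency, and no line was treated. The sources used here do not agree on whether the 4 libraries of a line are biological or technical replicates, so p-values measure the spread between libraries, which may be technical. The polyclonal libraries were read with short single-end reads and the WT5 libraries with longer paired-end reads at another time, so line and sequencing run cannot be told apart in that comparison. Values of the subclones came from a separate table, and every comparison of a subclone with WT5 was made across the 2 tables.

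The respiratory chain passes electrons from NADH through complex I, or from succinate through complex II, to ubiquinone, on through complex III and cytochrome c to complex IV, which reduces oxygen. Complexes I, III and IV pump protons across the inner mitochondrial membrane, and complex V, the ATP synthase, makes ATP from the returning protons. Each complex except complex II also holds subunits encoded by the mitochondrial genome, so the nuclear genes described here supply only a portion of each. Many small subunits of complex IV exist as paralogues used by different tissues, such as muscle or testis. The collecting duct is less rich in mitochondria than the proximal tubule, but its transport work also draws on ATP.

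Values were in TPM, a relative unit in which all genes of a library add up to a fixed total and from which read depth cannot be recovered. Nuclear protein-coding genes took 76.6% of this total in the polyclonal libraries, 91.0% in WT5 and 83.9% to 86.2% in the subclones, so a TPM in WT5 is a share of a differently composed total. Of 16 markers of collecting duct and renal epithelium, 14 had a mean of at least 1 TPM in the polyclonal line and 11 in WT5 and in each subclone. Those at this level only in the polyclonal line were Gata3, Avpr2 and Scnn1a. Aqp2, the vasopressin-regulated water channel of the collecting duct, was listed at 0 in all 28 libraries. Of 4 proximal tubule markers, only Lrp2 had a mean of at least 1 TPM, in every line. That list summed to 1.45 to 1.62 TPM in the polyclonal libraries and at most 10.26 in any other library. Summed over a list of 6 markers, fibroblast genes reached at most 2.12 TPM in any library, and 4 endothelial markers at most 0.29. Of 5 immune markers, Cd68 and Csf1r were above 1 TPM in every line, with list sums of 12.6 to 14.3 TPM in the polyclonal libraries and 38.7 to 44.9 in WT5, and Cd3e was listed at 0 in both lines. A muscle list of 6 genes summed to at most 0.63 TPM in the polyclonal libraries and 11.4 in any other library, and the part of such markers in the results was not tested.

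Complexes I to V were well expressed in every line. Together their members took 24539 ± 1604 TPM (SD, n = 4) in the polyclonal line, 33570.0 ± 507 in WT5 and between 29979 and 32332 on average in the subclones. The most abundant single transcript was Atp5b, the catalytic β subunit of the ATP synthase, in both the polyclonal line (1320.0 ± 83.6 TPM) and WT5 (4349 ± 124 TPM). Among tested members of complex IV the means in WT5 ran from 108 TPM for Cox7b to 1996 TPM for Cox6a1, and in complex I from 37.0 TPM for Ndufa11 to 937 TPM for Ndufa4. Complex II, the only complex encoded entirely in the nucleus, had the narrowest range, 110 TPM for Sdhb to 161 TPM for Sdhc in WT5. The assembly factors lay between 10.0 and 54.5 TPM in WT5.

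The paralogue sets showed the isoforms used outside muscle and testis. Cox4i1, Cox6a1, Cox6b1, Cox7a2 and Cox8a had means of 168 to 1316 TPM in the polyclonal line, whereas Cox8b, Cox8c and Cox7b2 were listed at 0 in all 28 libraries. Cox4i2, Cox6a2, Cox6b2 and Ndufa4l2 were near 0, and none exceeded a mean of 0.542 TPM in any line. Cox7a1, the heart and skeletal muscle form of the COX7A subunit, was the exception, with 4.07, 3.72, 3.90 and 5.60 TPM in the polyclonal libraries and 0.52, 0.52, 1.38 and 0 TPM in WT5. The 2 lines did not overlap, but because 1 WT5 library was at 0 the gene did not enter the test. In the subclones its means lay between 0.205 and 0.958 TPM.

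**Figure D1:**
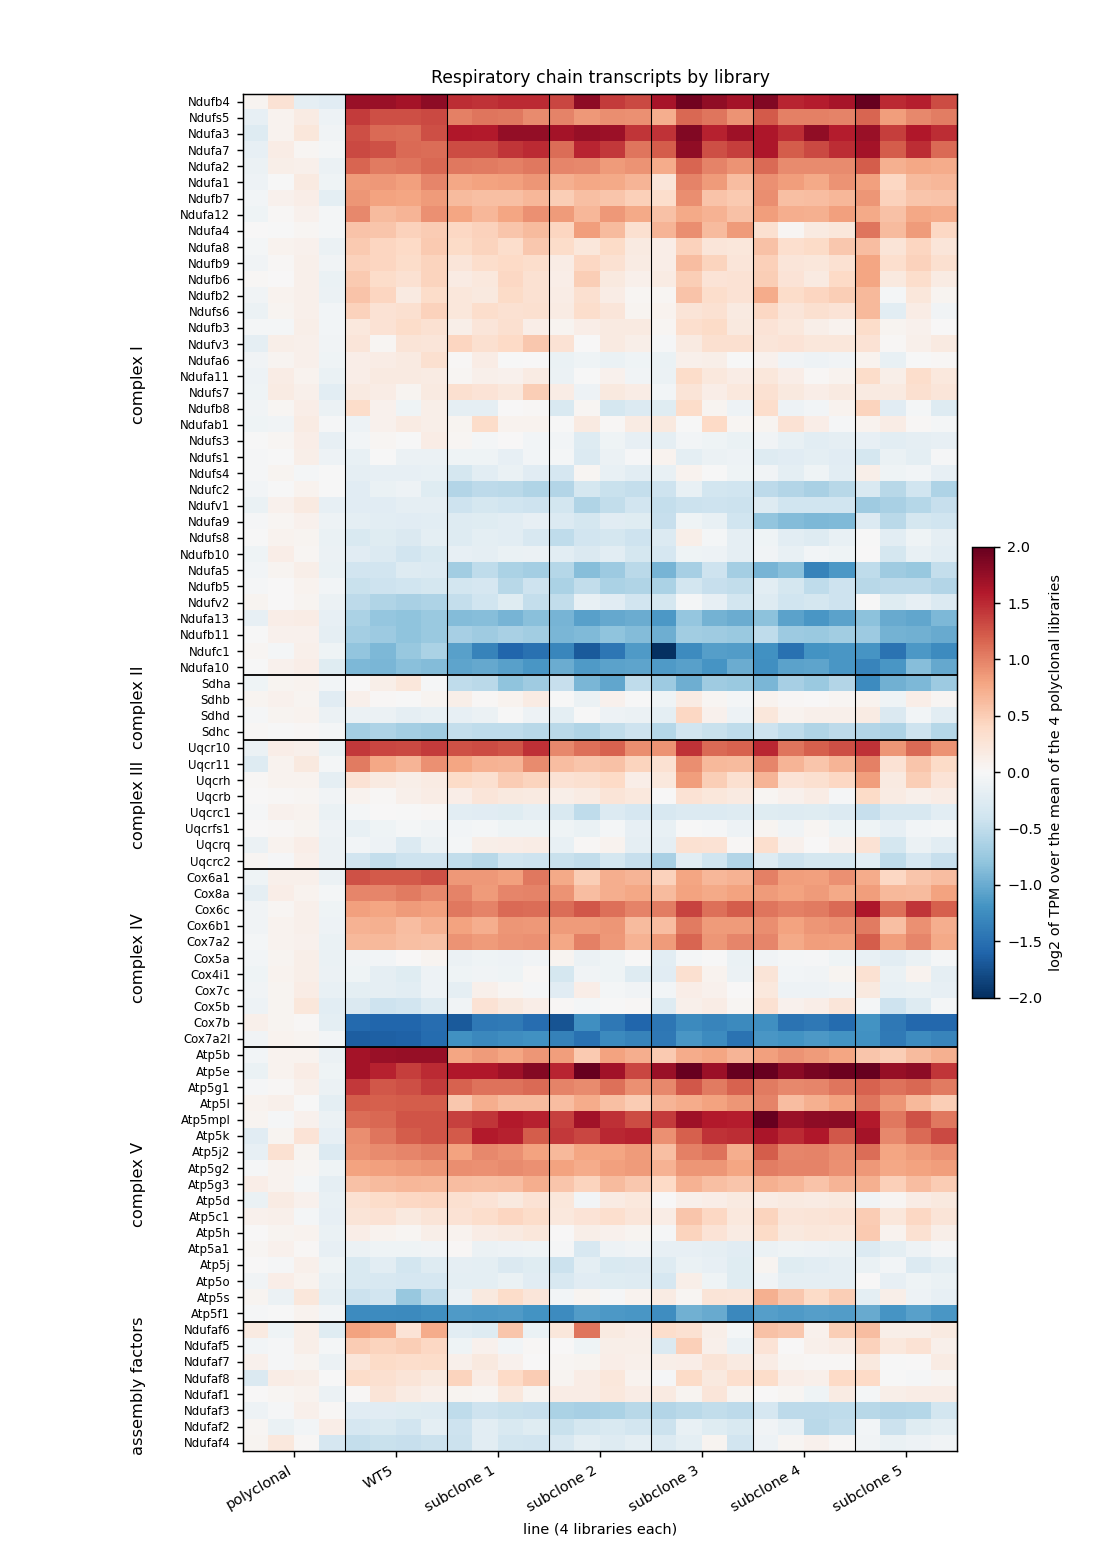
Colours show log2 of each library's TPM over the mean of the 4 polyclonal libraries for 84 of the 85 tested members, in columns of 4 libraries per line and in rows ordered within each complex by the difference between WT5 and the polyclonal line. Atp5b, Atp5e, Ndufb4 and Uqcr10 are red in all 24 clonal libraries, and Cox7a2l, Cox7b and Atp5f1 are blue in all 24.

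The summed TPM differed between WT5 and the polyclonal line in a different way for each complex. Complex V rose from 7849 ± 498 TPM in the polyclonal libraries to 13007 ± 188 in WT5 (SD, n = 4), a ratio of 1.66. Complex IV rose from 6188 ± 458 to 8069 ± 107 TPM, ratios for complexes III and I were 1.32 and 1.18, and complex II was lower in WT5 at 571 ± 10.7 TPM against 670.1 ± 29.5, a ratio of 0.851. When each library was rescaled over its nuclear protein-coding genes alone, the ratios fell to 1.40 for complex V, 1.11 for complex III and 1.099 for complex IV. They were then 0.995 for complex I and 0.717 for complex II, so complex I was no longer higher in WT5. With the pseudogenes described further on added to their parent genes, where they shared sequence with no other protein-coding gene, the ratio for complex V was 1.49. These sums are dominated by the most abundant members and are given without a test.

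**Figure D2:**
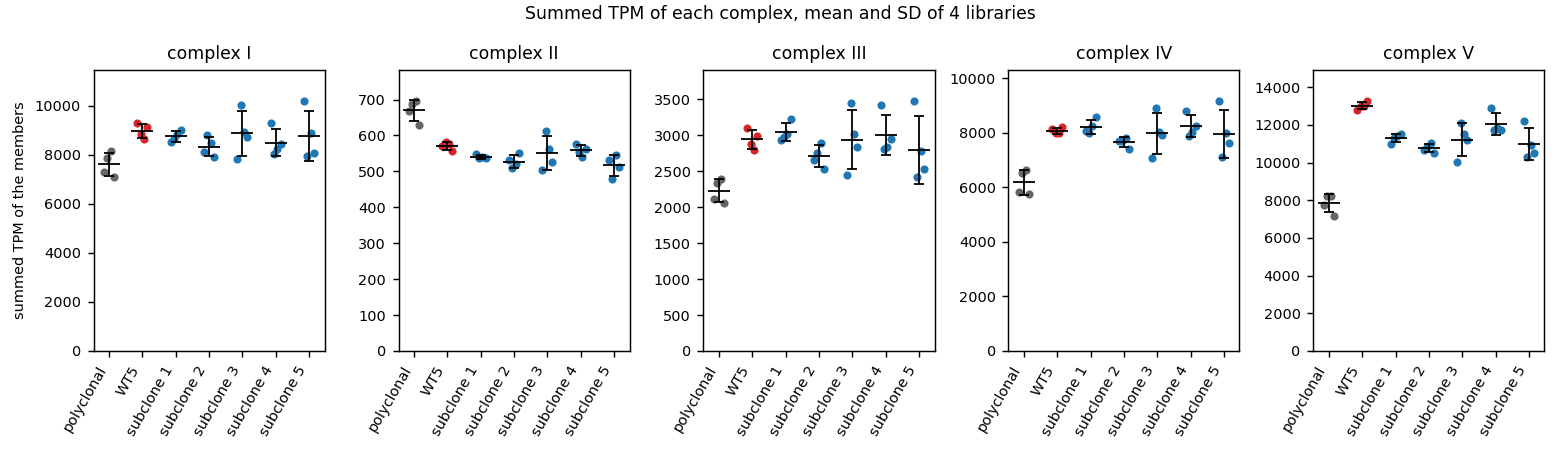
Each panel gives the summed TPM of the members of 1 complex (y axis, from 0) in the 7 lines, with points for libraries and bars for the mean and SD of 4 libraries. The polyclonal libraries lie below all WT5 libraries for complexes I, III, IV and V and above them for complex II, and for complex V the subclone means (10768 to 12041 TPM) lie between those of the polyclonal line and WT5.

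Between WT5 and the polyclonal line, 28 of the 85 tested members were higher and 35 lower in WT5 at an adjusted p below 0.01. The test was limma on log2(TPM) converted to z-scores within each library, with p-values adjusted over all 13723 genes tested, of which 34.5% were higher and 30.9% lower by the same rule. On this scale a difference of 1 equals about an 8.56-fold change in TPM relative to each library's own mean log2(TPM). The factor uses the SD averaged over libraries, so a z-score difference does not convert exactly into a fold change. Adding the requirement of a z-score difference above 1 left none of the 85 members, against 5.43% of all genes. On plain log2(TPM), neither centred nor divided by the standard deviation, the split was 36 higher and 23 lower, and with log2(TPM) centred on each library's median it was 26 and 36. The median of all genes was itself 0.24 higher in WT5 on the log2 scale. In TPM, 39 members had all WT5 libraries above all polyclonal ones and 27 had all below, beside 48.5% and 23.8% of all genes. The median z-score difference of the members was -0.02, beside 0.01 over all genes tested.

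By complex, 9 members of complex V were higher and 5 lower, of 17 tested, with a median difference of 0.15. This split holds for the genes alone. When the pseudogenes described further on were added, the call on Atp5g1 was lost and Atp5g2 turned lower. Atp5h, not called alone, was then lower (difference -0.09, adjusted p = 0.000533 in limma). Complex I had 11 higher and 15 lower of 37, complex IV 5 higher and 6 lower of 11, complex III 2 higher and 4 lower of 8, and complex II 0 higher and 2 lower of 4. Among the assembly factors 1 was higher and 3 were lower of 8. In every complex but complex II, which has only 4 genes, members were called in both directions. Of all genes tested, 34.5% were higher and 30.9% lower by the same rule, so calls in both directions are not particular to these complexes.

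**Figure D3:**
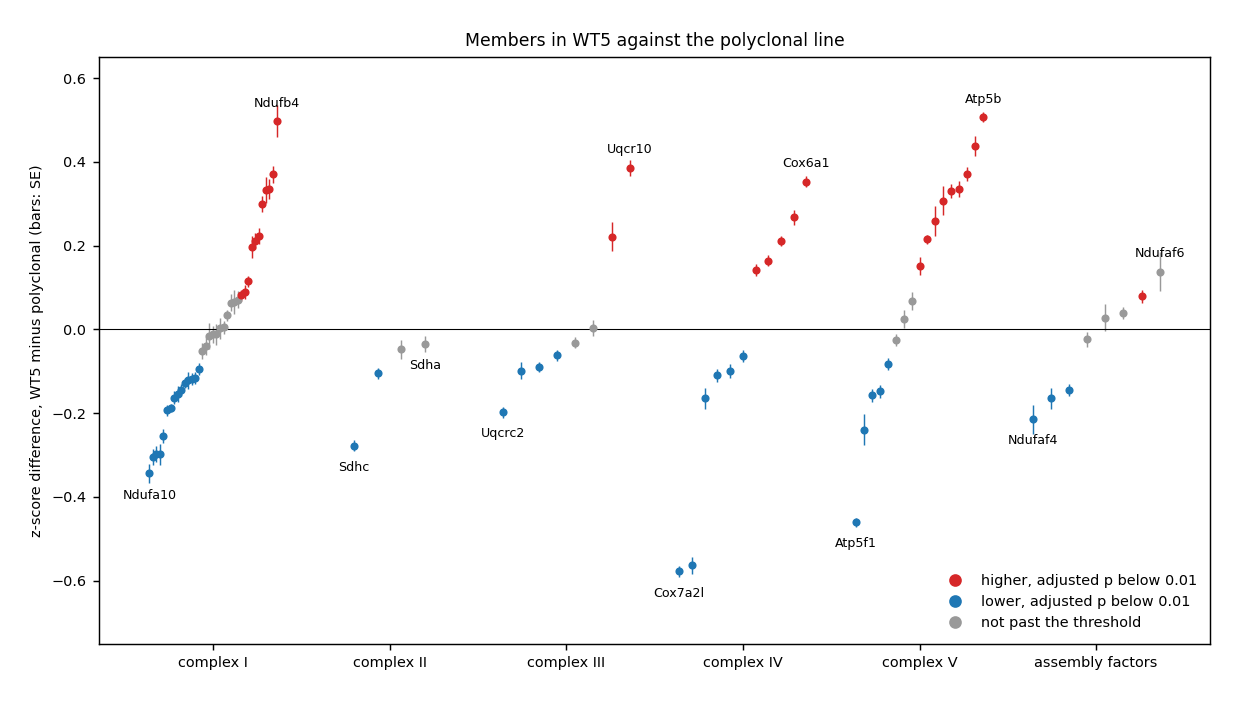
Points give the z-score difference of each tested member, WT5 minus polyclonal, with its SE as a bar, grouped by complex and coloured by call. Without pseudogenes added, the members range from -0.58 for Cox7a2l to 0.51 for Atp5b, and complex V has the highest median of the 6 groups.

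In complex V the catalytic head and the central stalk held members with different calls. Atp5b and Atp5e rose, whereas Atp5a1, the other subunit of the catalytic ring, was lower by a z-score difference of -0.08. In TPM the Atp5a1 libraries overlapped, at 567 to 670 in the polyclonal line and 585 to 603 in WT5. Atp5c1 and Atp5d, of the central stalk, did not pass the test. In TPM, however, all their WT5 libraries lay above all polyclonal ones, 354 to 379 against 274 to 333 and 485 to 528 against 355 to 443. The contrast between these subunits thus differs between z-scores and TPM. Atp5b was measured at 1277, 1388, 1391 and 1223 TPM in the polyclonal libraries and at 4165, 4385, 4426 and 4419 TPM in WT5, a 3.29-fold difference (z-score difference 0.51, SE 0.012, adjusted p = 3.07e-08). Atp5e, the small ε subunit of the central stalk, had 339.7, 389.9, 413 and 349.7 TPM in the polyclonal libraries and 1184, 1086, 972 and 1050.4 TPM in WT5, 2.88-fold higher (z-score difference 0.44, SE 0.024, adjusted p = 1.82e-06). For both genes all WT5 and all subclone libraries lay above all polyclonal libraries. The largest change in the other direction was that of Atp5f1, the b subunit of the peripheral stalk, which fell from 787, 793, 839 and 771 TPM to 334, 335, 330.0 and 340.0 TPM, a 2.38-fold reduction (z-score difference -0.46, SE 0.01, adjusted p = 2.28e-08). Atp5o, the OSCP subunit that joins the stalk to the catalytic head, was lower as well, 594 ± 5.52 against 743 ± 66.6 TPM (z-score difference -0.16, SE 0.016, adjusted p = 4.39e-05). Atp5s, coupling factor B, was the least abundant member of the group and fell from 10.6 ± 1.43 to 7.38 ± 0.817 TPM (z-score difference -0.24, SE 0.037, adjusted p = 0.000555). The 3 genes for the c subunit of the rotor ring, Atp5g1, Atp5g2 and Atp5g3, were higher in WT5 by 2.52-, 1.79- and 1.55-fold, but the first 2 share sequence with expressed pseudogenes, as given further on.

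In complex I the members that rose most were small accessory subunits. Ndufb4 was measured at 35.7, 42.3, 30.4 and 29.4 TPM in the polyclonal libraries and 114, 114, 109 and 119 TPM in WT5 (z-score difference 0.50, SE 0.039, adjusted p = 1.13e-05), a difference that came to 0.12 when the TPM of its pseudogenes were added. Ndufs5 had 127, 149, 159 and 133 TPM and 376, 348, 347 and 355 TPM in the same order, 2.51-fold higher in WT5 (z-score difference 0.37, SE 0.021, adjusted p = 1.98e-06), and Ndufa7 was 2.32-fold higher (z-score difference 0.34, SE 0.025, adjusted p = 8.38e-06). No polyclonal library reached the level of any WT5 library for these genes. Members that fell were led by Ndufa10, an accessory subunit of the membrane arm, with 164, 176, 179.9 and 139 TPM against 88.4, 87.0, 92.5 and 89.8 TPM in WT5 (z-score difference -0.34, SE 0.022, adjusted p = 3.78e-06). Ndufc1 was 1.70-fold lower (z-score difference -0.30, SE 0.02, adjusted p = 4.18e-06) and Ndufb11 1.67-fold lower (z-score difference -0.30, SE 0.019, adjusted p = 4.21e-06). Of the subunits that carry out the catalysis, Ndufv1, which binds NADH, was lower in WT5 by a z-score difference of -0.12. Ndufv2, Ndufs8 and Ndufs1 were lower by -0.25, -0.14 and -0.09. The Ndufs1 libraries overlapped in TPM, at 77.4 to 89.6 in the polyclonal line and 74.9 to 82.1 in WT5. Ndufs3 and Ndufs7, which holds the last iron-sulfur cluster, did not pass the test.

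In complex II, Sdhc, a membrane anchor, fell from 260.4, 255, 261 and 248 TPM to 159.9, 167, 159 and 157 TPM (z-score difference -0.28, SE 0.012, adjusted p = 5.86e-07), and the other anchor, Sdhd, from 171 ± 9.86 to 155 ± 3.36 TPM (z-score difference -0.11, SE 0.013, adjusted p = 0.000168). Sdhd did not pass on plain log2(TPM). Sdha, the flavoprotein that oxidises succinate, had 137 ± 7.26 TPM in the polyclonal line and 145 ± 11.2 in WT5 and was not called. In complex III, Uqcr10, a small subunit beside cytochrome c1, had 279.6, 332, 325 and 275 TPM in the polyclonal libraries and 803, 764, 755 and 796 TPM in WT5, 2.57-fold higher (z-score difference 0.39, SE 0.019, adjusted p = 9.35e-07). Uqcr11 was 1.81-fold higher (z-score difference 0.22, SE 0.034, adjusted p = 0.000557), and the core protein Uqcrc2 was 1.34-fold lower (z-score difference -0.20, SE 0.014, adjusted p = 6.51e-06). The 4 libraries of WT5 and those of the polyclonal line did not overlap for any of these called genes.

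All 11 tested members of complex IV were called. Cox6a1 had 787, 897, 896 and 776 TPM in the polyclonal libraries and 2019, 1964, 1964 and 2039 TPM in WT5, 2.38-fold higher (z-score difference 0.35, SE 0.013, adjusted p = 2.67e-07). Cox8a was 1.99-fold higher (z-score difference 0.27, SE 0.018, adjusted p = 5.04e-06) and Cox6c 1.76-fold higher (z-score difference 0.21, SE 0.011, adjusted p = 1.36e-06), and Cox6b1 and Cox7a2 rose by z-score differences of 0.16 and 0.14. In the other direction, Cox7a2l, a COX7A relative that joins complexes III and IV in supercomplexes, had 576, 639, 628 and 580.1 TPM in the polyclonal libraries and 193, 194, 198 and 207 TPM in WT5 (z-score difference -0.58, SE 0.012, adjusted p = 1.86e-08). Cox7b fell from 343, 333, 325 and 278 TPM to 109, 106, 107 and 112 TPM, 2.95-fold (z-score difference -0.56, SE 0.02, adjusted p = 2.13e-07). Cox5b, a zinc-binding subunit, was lower by -0.16 on the z-score scale but did not pass on plain log2(TPM). Cox4i1, the largest nuclear subunit, had 1234, 1387, 1422 and 1219 TPM and 1245, 1167, 1108 and 1227 TPM, with overlapping libraries and a call (z-score difference -0.10, SE 0.017, adjusted p = 0.000906) that was lost on plain log2(TPM) and with a filter at a mean of 1 TPM. Ndufa4, counted here with complex I by its name although its protein is found in complex IV, was 1.44-fold higher in WT5 (z-score difference 0.11, SE 0.013, adjusted p = 0.000112).

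Of the 8 assembly factors, 4 were called. Ndufaf5 rose from 10.9 ± 0.596 to 15.1 ± 0.456 TPM (z-score difference 0.08, SE 0.015, adjusted p = 0.00164), a call that was lost on rescaling over nuclear protein-coding genes. Ndufaf2, Ndufaf3 and Ndufaf4 were lower by z-score differences of -0.16, -0.15 and -0.21. The call on Ndufaf4, at 10.0 ± 0.176 TPM in WT5, was lost in the unequal-variance test.

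Of the 85 members, 28 had all 24 clonal libraries above all 4 polyclonal libraries in TPM, or 32.9%, and 15 had all 24 below, or 17.6%. Over all genes above 0 in all libraries the shares were 29.1% and 16.0%. The members above included 10 of complex V, among them Atp5b, Atp5e, Atp5k and Atp5l, and those below included Ndufa13, Ndufb11, Ndufc1, Sdhc and Uqcrc2.

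Some members have processed pseudogenes, copies of the spliced transcript elsewhere in the genome, from which short reads cannot always be told apart. Of the 93 members, 33 shared at least 1 stretch of 50 bases with an annotated pseudogene in the GENCODE M21 transcripts (GRCm38), and 29 had a pseudogene that shared no such stretch with any other protein-coding gene. Coding bases are shown for 4 members with expressed pseudogenes that copy the coding sequence almost base for base, and for 3 of them, Atp5g1, Atp5g2 and Ndufb4, the pseudogenes carried more TPM than the gene itself in the polyclonal line. Capitals mark bases that differ between gene and pseudogene, and positions count from the first base of the gene's start codon.
Atp5g2 and Gm10175, bases 1 to 80: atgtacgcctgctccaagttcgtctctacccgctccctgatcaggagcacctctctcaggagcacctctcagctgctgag
Ndufb4 and Ndufb4c, bases 1 to 80: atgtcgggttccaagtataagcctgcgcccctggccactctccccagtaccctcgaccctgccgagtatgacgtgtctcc
Cox7c and Gm12338, bases 1 to 80: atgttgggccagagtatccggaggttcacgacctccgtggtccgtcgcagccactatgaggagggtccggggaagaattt
Atp5g1, bases 306 to 385: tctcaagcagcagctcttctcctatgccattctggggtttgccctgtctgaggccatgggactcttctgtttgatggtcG
Gm10039, same bases: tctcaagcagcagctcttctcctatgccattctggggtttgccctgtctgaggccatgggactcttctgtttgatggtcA
Gm10175 (chr7:23946646-23947290, minus strand) matched all 438 coding bases of Atp5g2 (chr15:102662864-102672352, minus strand), Ndufb4c (chr15:73809507-73809896, minus strand) all 387 of Ndufb4 (chr16:37647170-37654453, minus strand), and Gm12338 (chr11:75599763-75599954, minus strand) all 189 of Cox7c (chr13:86044816-86046904, minus strand). Gm10039 (chr11:100361716-100362126, minus strand) differed from Atp5g1 (chr11:96068852-96075670, minus strand) at 1 of 408 coding bases, the substitution G385A. By contrast, the 3 Atp5g genes shared no stretch of 50 coding bases among themselves, and their last 225 coding bases were 78.7% to 84.9% identical.

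The pseudogenes took a larger share in the polyclonal libraries than in any clonal line. In the polyclonal line the 65 pseudogenes that share sequence with a member summed to 1935 ± 114 TPM, against 736 ± 31.8 in WT5 and means of 602 to 708 in the subclones. For Atp5g2 the gene had 398 TPM and its pseudogenes 454 in the polyclonal line, and 712 and 27.6 in WT5. Added together, the 2 lines had 852 and 739 TPM, and the z-score difference turned from 0.21 to -0.12 (adjusted p = 3.13e-05 for the sum). For Atp5g1 the sum was 289.6 TPM in the polyclonal line and 332 in WT5, and the call was lost (z-score difference 0.01, adjusted p = 0.8). Ndufb4 remained higher in WT5 when summed, but by 0.12 instead of 0.50, with Ndufb4c alone at 297 TPM in the polyclonal line and 373 in WT5.

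The pseudogene of Cox7a2l, Gm6969, with 69.3% of its stretches shared, had 83.9 TPM in the polyclonal line and 192 in WT5. The summed value was still lower in WT5, 391 against 689.7 TPM, with a difference of -0.32 in place of -0.58. Ndufab1, the mitochondrial acyl carrier protein, was not called by itself, at 121 and 127 TPM, and was lower in WT5 after summing (difference -0.34, adjusted p = 2.01e-06), with Gm4459 at 112 TPM in the polyclonal line and 1.72 in WT5. Cox7c was lower in WT5 both alone (z-score difference -0.11, SE 0.016, adjusted p = 0.000419) and summed (difference -0.26). Over all 85 members, summing gave 26 higher and 39 lower. Only pseudogenes that shared no stretch with another protein-coding gene were summed. Gm10221, with 100% of its stretches shared with Atp5l, also shared with another gene and was left out. It had 122 TPM in the polyclonal line and 20.1 in WT5, where Atp5l itself had 251 and 582. Read length and line cannot be told apart in these values.

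**Figure D4:**
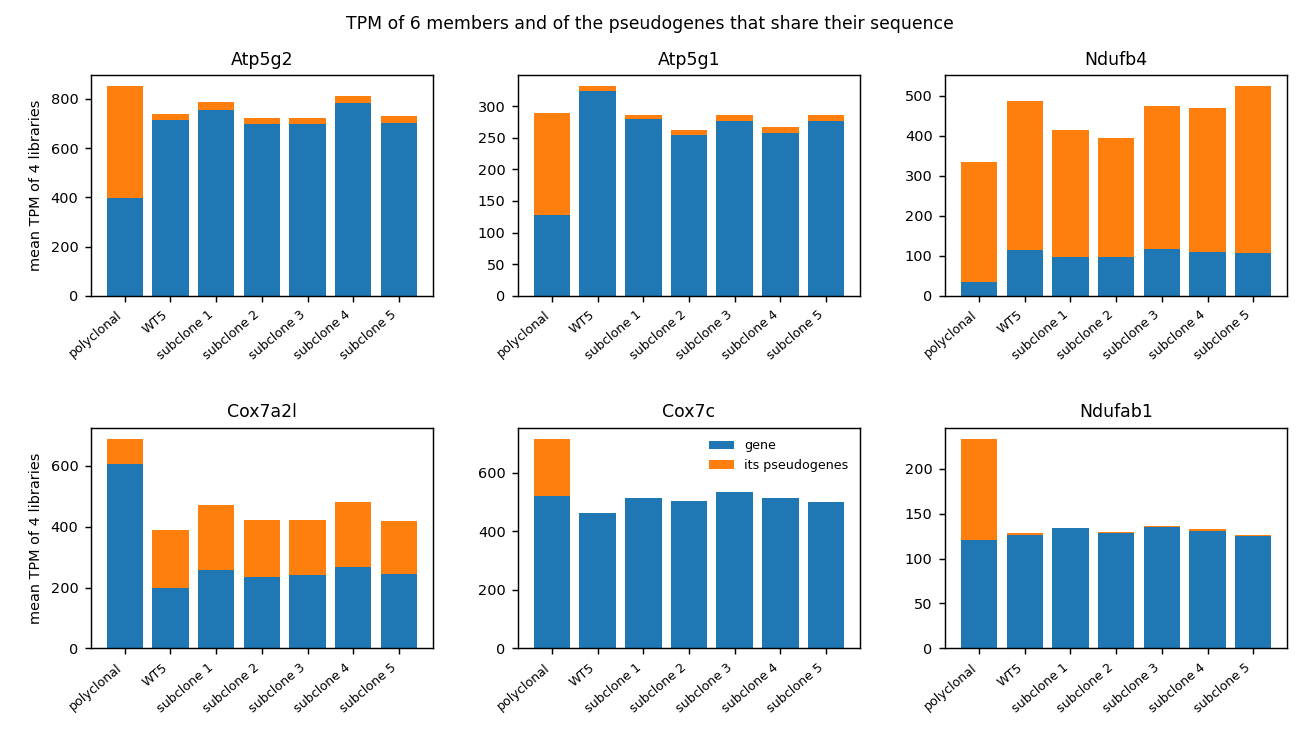
Stacked bars give the mean TPM of 4 libraries (y axis, from 0) for 6 members and for the pseudogenes that share their sequence, in the 7 lines. In the polyclonal line the pseudogenes of Atp5g2 add 454 TPM to the 398 of the gene, whereas in WT5 they add 27.6 to 712.

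Higher and lower members also differed in the length of their transcripts. The longest annotated transcript had a median of 767.5 bases in the 28 higher members, 1487 in the 35 lower ones and 1111.5 in the 22 not called. Over all protein-coding genes tested, the medians were 3602 bases for higher and 3250.5 for lower genes. Across the 85 members Spearman's correlation of the z-score difference with length was -0.31, and across 12024 protein-coding genes 0.07, both given as descriptions because genes within the same libraries are not independent. When trends on transcript length and GC content were taken out of each library, 33 members were higher and 34 lower.

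Promoter sequences of RefSeq (GRCm38.p6, from 250 bases before to 50 after the start) were at hand for 74 members and 16338 protein-coding genes. They were searched on both strands for 3 short motifs of factors known to act on respiratory chain genes: CCGGAAG for the ETS family that includes GABP (NRF2), GCATGCG for NRF1, and AAGATGG for YY1. The ETS motif was found in 23.0% of the members and 12.4% of all promoters, the NRF1 motif in 16.2% and 4.69%, and the YY1 motif in 13.5% and 6.46%. Among the 9307 promoters of genes above 0 TPM in all 28 libraries the shares were 19.5%, 6.87% and 7.4% in the same order. Of 24 members with a promoter that were higher in WT5, 8 held the ETS motif, 7 the NRF1 motif and 2 the YY1 motif, and of 26 lower members 2, 2 and 4 held them. Of 20 members that did not pass the test, 7, 3 and 4 held them, which is 35.0% for the ETS motif, beside 33.3% of the higher members. These counts are descriptions, and a match is not a bound site. The promoters of Cox6a1 and Uqcr11 are shown as named higher members with both an ETS and an NRF1 match. That of Cox7b is shown as a named lower member with none of the 3 motifs. They are picked examples and do not stand for the named members. The named higher members Atp5b, Ndufb4, Ndufs5, Ndufa7 and Uqcr10 had no match. Among the named lower members, Sdhd had an ETS match and Ndufaf4 had NRF1 matches. Capitals mark the matches.
Cox6a1, chr5:115348909-115349208, minus strand: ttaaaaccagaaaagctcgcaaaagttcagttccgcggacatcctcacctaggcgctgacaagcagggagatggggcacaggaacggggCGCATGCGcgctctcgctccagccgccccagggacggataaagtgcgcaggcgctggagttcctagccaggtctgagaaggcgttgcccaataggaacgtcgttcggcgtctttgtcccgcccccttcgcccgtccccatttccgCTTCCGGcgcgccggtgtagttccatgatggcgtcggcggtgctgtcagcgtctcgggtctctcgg
Uqcr11, chr10:80406772-80407071, minus strand: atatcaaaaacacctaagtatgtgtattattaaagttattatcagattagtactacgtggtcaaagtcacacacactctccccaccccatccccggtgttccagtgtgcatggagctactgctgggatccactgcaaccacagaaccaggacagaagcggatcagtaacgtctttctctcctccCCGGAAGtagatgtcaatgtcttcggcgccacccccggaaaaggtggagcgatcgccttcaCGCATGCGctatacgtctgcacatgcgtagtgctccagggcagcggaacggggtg
Cox7b, chrX:106015450-106015749, plus strand: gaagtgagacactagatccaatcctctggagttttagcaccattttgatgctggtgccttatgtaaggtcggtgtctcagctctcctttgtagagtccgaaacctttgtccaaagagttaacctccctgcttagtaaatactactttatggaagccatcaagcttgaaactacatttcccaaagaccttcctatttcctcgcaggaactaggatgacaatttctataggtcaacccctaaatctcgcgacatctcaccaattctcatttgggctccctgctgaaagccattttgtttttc
In Cox6a1 the reverse complement of the ETS motif began 16 bases before the RefSeq start, and in Uqcr11 the NRF1 matches overlapped at 5 and 4 bases before it.

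In the subclones, counted against WT5, no member passed a z-score difference above 1 in any of the 5 comparisons, a size reached by 0.152%, 0.144%, 0.173%, 0.202% and 0.173% of all 13860 genes tested in subclones 1 to 5. At an adjusted p below 0.01, subclone 4 had 34 members higher and 8 lower, against 18.2% and 19.2% of all genes. Subclone 1 had 19 higher and 8 lower (background 12.7% and 13.6%), subclone 2 had 9 and 10 (13.4% and 12.6%), subclone 3 had 17 and 2 (8.65% and 10.9%), and subclone 5 had 10 and 4 (10.2% and 11.7%). With log2(TPM) centred on the median in place of z-scores the splits were 8 and 11, 8 and 12, 1 and 3, 18 and 8, and 2 and 5 for subclones 1 to 5. The direction of the majority therefore turned for subclones 1, 3 and 5, and subclone 4 kept more higher than lower calls, although on plain log2(TPM) its split was 15 higher and 19 lower.

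These counts also moved with single libraries. Leaving out WT5 replicate 2, 3 or 4, or subclone 1 replicate 4, brought the higher calls of subclone 1 from 19 to 10, and leaving out subclone 1 replicate 3 to 12. For subclone 3 the higher calls fell from 17 to between 7 and 10 without any 1 WT5 library, and to 9 without subclone 3 replicate 3. For subclone 5 they fell from 10 to between 3 and 5 without any 1 WT5 library, and to 4 without subclone 5 replicate 3. The higher calls of subclone 4 stayed between 23 and 32, all within 1.5 times the full count. Lower calls, 10 or fewer in each subclone, moved by more than 1.5 times in subclones 1, 2, 4 and 5, to between 2 and 6, when any of several WT5 or subclone libraries was left out.

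By complex, complex V accounted for 13 of the 34 higher members of subclone 4, of 17 tested, and complex IV for 8 of 11. Complex IV also had 6 higher and 0 lower members in subclone 1 and 7 and 0 in subclone 3. Of all genes, 18.2% were higher in subclone 4, 12.7% in subclone 1 and 8.65% in subclone 3. These are calls on z-scores, and higher calls were fewer in each of these subclones with log2(TPM) centred on the median. In subclone 3 they were then fewer over all complexes than the 7 counted here for complex IV alone. Its median z-score difference was between 0.09 and 0.15 in the 5 subclones, beside medians over all genes between -0.0031 and 0.0025. Complex I had medians between -0.01 and 0.03. The assembly factors were negative in all 5, between -0.04 and -0.01, and held at most 1 higher member in any subclone.

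Atp5b and Sdha fell in all 5 subclones. Atp5b, at 4349 ± 124 TPM in WT5, had means of 1998 to 2364 TPM in the subclones, and every one of the 20 libraries lay below every WT5 library. The z-score difference was -0.23 in subclone 1 (adjusted p = 5.5e-05) and -0.25 in subclone 2 (adjusted p = 5.23e-05), where it was the largest fall of any member on that scale. Sdha was measured at 138, 148, 159 and 134 TPM in WT5 and at 56.9, 70.4, 73.1 and 82.7 TPM in subclone 5 (z-score difference -0.29, SE 0.028, adjusted p = 0.000347), and was the member that fell most by z-score in subclones 3, 4 and 5. Over the 85 members, 10 had all 20 subclone libraries below all WT5 libraries, or 11.8%, against 12.7% of all genes. They were Atp5b, Atp5l, Cox6a1, Ndufa5, Ndufaf3, Ndufc1, Ndufs5, Ndufv1, Sdha and Uqcrc1.

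Atp5s was the member that rose most by z-score in subclones 1, 3 and 4. It had 7.86, 8.08, 6.25 and 7.32 TPM in WT5 and 17.4, 15.4, 13.8 and 14.8 TPM in subclone 4, a 2.08-fold difference (z-score difference 0.35, SE 0.036, adjusted p = 0.000171). In subclone 2 the largest rise in z-score was that of Ndufa3, 1.35-fold in TPM (z-score difference 0.20, SE 0.033, adjusted p = 0.00264), and in subclone 5 that of Cox6c, from 1076, 1053, 1108 and 1086 TPM to 1874, 1308, 1646 and 1399 TPM (z-score difference 0.25, SE 0.041, adjusted p = 0.00278). The call on Cox6c was lost without WT5 replicate 4 or subclone 5 replicate 3, and that on Atp5s in subclone 1 without WT5 replicate 3 or 4 or subclone 1 replicate 2 or 4. Altogether 7 members, or 8.24%, had all 20 subclone libraries above all WT5 libraries, against 3.41% of all genes: Atp5s, Cox6c, Cox7a2, Cox7a2l, Ndufa3, Ndufv2 and Sdhc. All subclone libraries came from the other table, so that clone and table cannot be told apart for members that differ from WT5 in the same way in all 5.

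Within the subclone table, few members were called as different among the 5 subclones. A moderated F-test over the 20 libraries called 6 of the 85 members, or 7.06%, against 24.6% of all 14031 genes tested. Libraries of subclones 3 and 5 spread widely for these genes. The summed TPM of complex I had SDs of 914 and 1015 there, against 218, 392 and 546 in subclones 1, 2 and 4. A member that was not called is therefore not shown to be equal among the subclones. Among the 6 were Ndufa9 (adjusted p = 0.000189), Atp5s (adjusted p = 0.00141), Atp5b (adjusted p = 0.00148), Ndufv1 (adjusted p = 0.00661) and Atp5g2 (adjusted p = 0.00875). Set against the mean of the other 4 subclones, subclone 4 had 5 members higher and 3 lower (background 8.62% and 9.77%), and subclone 5 had 0 higher and 2 lower (background 6.98% and 7.55%). Subclones 1, 2 and 3 had no member called in this limma test, with 7, 10 and 6 members at an unadjusted p below 0.05, against 2.6% higher and 1.76% lower of all genes in subclone 1, 3.17% and 2.78% in subclone 2, and 2.01% and 2.84% in subclone 3. Ndufv1 was lowest in subclone 5, at 162, 169, 177 and 191 TPM (difference -0.05, adjusted p = 0.00442), and Atp5g2 highest in subclone 4, at 805, 789, 790.1 and 750.2 TPM (difference 0.06, adjusted p = 0.00123).

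The lower members of subclone 4 included 2 on chromosome 6. Ndufa9, an accessory subunit, had 91.9, 87.5, 85.4 and 86.8 TPM in subclone 4 and a mean of 131 TPM in the other subclones, and its libraries did not overlap with any of theirs (difference -0.18, SE 0.024, adjusted p = 1.56e-05). Ndufa5 had 153, 163, 116 and 131 TPM against a mean of 187 (difference -0.13, adjusted p = 0.00355). Ndufa4 had 814, 668, 738 and 765 TPM against a mean of 1031 and missed the threshold (difference -0.14, adjusted p = 0.0161). The remaining member on this chromosome, Ndufb2, was at 247 TPM in subclone 4 and 207 in the others (difference 0.09, adjusted p = 0.0964). The genes lie along the chromosome in the order Ndufa4, Ndufa5, Ndufb2 and Ndufa9. Of 575 protein-coding genes tested on chromosome 6, 53.0% were called lower in subclone 4 than in the other subclones at an adjusted p below 0.01, with a median difference of -0.13 over all 575. Chromosome 12 holds 2 members, Atp5s and Atp5mpl. Of its 416 genes, 74.3% were called higher in subclone 4 (median 0.122) and 66.8% lower in subclone 5 (median -0.105). Atp5s differed by 0.146 in subclone 4 and -0.088 in subclone 5, and Atp5mpl by 0.150 and -0.105. Neither gene was called in subclone 5. The causes of these shifts were not tested.

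**Figure D5:**
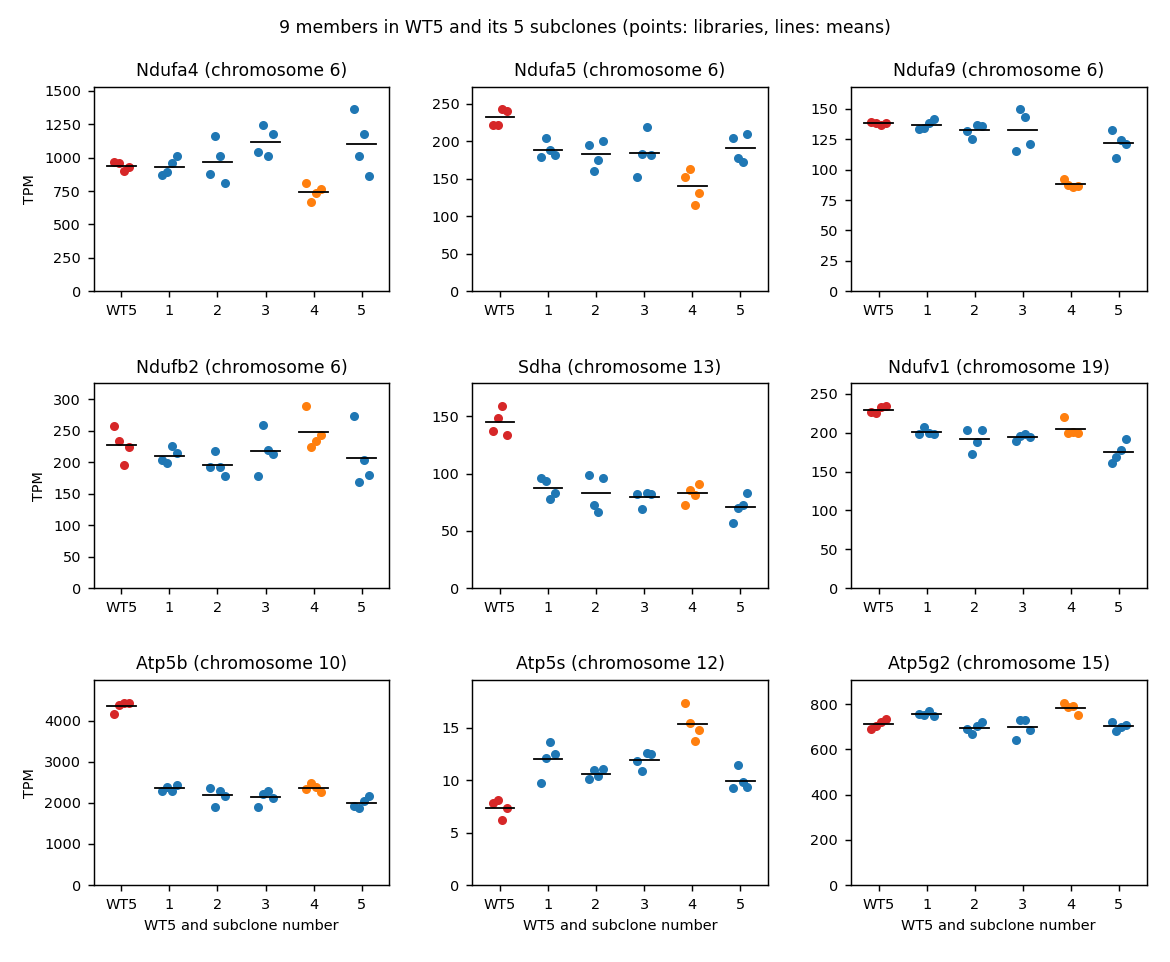
Panels give TPM (y axis, from 0) of 9 members in the libraries of WT5 (red), subclone 4 (orange) and the other subclones (blue), with lines for means. Ndufa9 is at 85.4 to 91.9 TPM in subclone 4 and at 109 or more in every other library, and Atp5b is at 2471 TPM or less in all 20 subclone libraries and at 4165 TPM or more in WT5.

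Genes around the chain were counted by the same test, beside the 34.5% of all genes that were higher and 30.9% that were lower in WT5. Of 48 assembly factors and stabilisers outside the naming rule that were tested, 13 were higher and 22 lower in WT5 than in the polyclonal line, led by Cox17, a copper chaperone of complex IV (508 ± 23.5 against 169 ± 10.2 TPM), and Slirp, which stabilises mitochondrial messenger RNA (23.9 ± 1.40 against 112 ± 4.13 TPM). Of 19 electron carriers and genes of coenzyme Q synthesis, 8 were higher and 10 lower. Cycs, somatic cytochrome c, rose from 17.7 ± 1.42 to 94.1 ± 7.84 TPM (z-score difference 0.71, adjusted p = 1.94e-07), and Coq8a fell from 12.7 ± 2.59 to 4.21 ± 1.18 TPM. The citric acid cycle list had 3 higher and 11 lower of 18, with Pdha1, of the pyruvate dehydrogenase complex, the largest rise at 52.5 ± 1.69 against 17.0 ± 0.345 TPM.

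Of 14 regulators of mitochondrial biogenesis, 7 were higher and 2 lower in WT5, against the same shares over all genes. Nrf1 rose from 31.0 ± 1.61 to 77.5 ± 2.13 TPM (adjusted p = 3.36e-07), and the coactivator Ppargc1a fell from 6.05 ± 0.748 to 1.1 ± 0.158 TPM (adjusted p = 6.83e-07). Tfam, which packages and transcribes mitochondrial DNA, was the largest fall among 16 genes of mitochondrial DNA upkeep, at 179 ± 15.2 TPM in the polyclonal line and 92.4 ± 1.84 in WT5, with 1 gene higher and 7 lower in that list. The 13 protein genes of the mitochondrial genome summed to 6.13% of all TPM in the polyclonal line, 4.83% in WT5 and 6.99% to 8.40% in the subclones. Of these, 2 were higher and 3 lower in WT5 than in the polyclonal line. Against WT5, 9 of 12 tested were higher and 3 lower in each of the 5 subclones, where 8.65% to 18.2% of all genes were higher and 10.9% to 19.2% lower, with mt-Co2 at 9174 ± 1065 TPM in WT5 and means of 519 to 698 in the subclones. Among the subclones themselves none of the 12 was called by the F-test in limma, and 4 had an unadjusted p below 0.05.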

How the data were processed

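RNA from 7 lines of mIMCD-3 cells was sequenced in 28 libraries. The deposited values are TPM, made by the authors with STAR 2.7.3a on GRCm38 and RSEM 1.3.1, with base calls from CASAVA 1.8 per the labels; 1 table holds the polyclonal and WT5 libraries and another the subclones, and TPM keeps no read depth, so no counting error can be given. Genes above 0 in all libraries of a comparison were taken as log2(TPM) without a pseudocount, converted to z-scores within each library and tested with limma 3.58.1 in R 4.3.3, with Benjamini-Hochberg adjustment over all genes and a threshold of 0.01, with and without a z-score difference above 1. The script was tested on simulated data. Gene positions, types and transcripts came from GENCODE M21, with 45143 of 45706 identifiers matched. Alternatives were another test, pseudocounts of 0.1 and 1, filters, scalings, sums with pseudogenes, a threshold of 0.05, a replicate block and leaving out libraries; removal of length and GC trends was added after seeing the data. Named genes were, per complex, up to 3 higher and 3 lower with separate libraries, the largest change in each subclone, the 6 with the smallest F-test p, fixed paralogue sets and members exceeded by their pseudogenes. The members and gene lists were chosen with earlier results of these data known. The values of 1 member are not reported here.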

Additional observations from a re-analysis of the deposited data

Results flagged for a closer look

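In groups of 4 libraries, a library was singled out where its gap to the nearest other library was larger, relative to the whole range, than the critical value of Dixon's test, which chance alone does in about 1 of 20 groups. Of 161 groups examined, 10 were singled out. In the complex sums, complex V of subclone 4 replicate 1 summed to 12906 TPM, above the other 3 libraries of that subclone. Ndufv1 was at 207.6 TPM in subclone 1 replicate 2 and at 220.5 TPM in subclone 4 replicate 1, in each case the highest library of its line. Sdha was at 69.2 TPM in subclone 3 replicate 2, Ndufaf5 at 11.8 TPM in polyclonal replicate 3 and Atp5b at 4165 TPM in WT5 replicate 1, the last still above every library of the other lines. The other 4 concern genes near 0, in which 1 library held a trace: Cox4i2 at 0.19 TPM in WT5 replicate 2 and 0.22 TPM in polyclonal replicate 2, Cox6b2 at 0.13 TPM in polyclonal replicate 1 and Ndufa4l2 at 0.05 TPM in polyclonal replicate 1.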

How the results depend on the processing

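Against the polyclonal line, the 28 higher and 35 lower members stayed within 1.5 times under every alternative run except plain log2(TPM), which gave 36 and 23, and leaving out any 1 library gave 28 to 30 and 33 to 36. No member passed a z-score difference of 1 in any alternative on the z-score scale. The counts of the subclones against WT5, given as higher and lower members for subclones 1 to 5 and set against 19 and 8, 9 and 10, 17 and 2, 34 and 8, and 10 and 4, depended on the processing. Plain log2(TPM) gave 8 and 16, 5 and 16, 1 and 8, 15 and 19, and 3 and 6; centring log2(TPM) on the median gave 8, 8, 1, 18 and 2 higher. The unequal-variance test gave 8 and 5, 4 and 4, 3 higher in subclone 3, 22 and 5, and 0 and 2. Without a filter and with a pseudocount of 0.1 there were 8, 1, 22 and 1 higher in subclones 1, 3, 4 and 5. An adjusted p below 0.05 gave 31 and 14, 21 higher in subclone 2, 30 and 5, and 24 higher in subclone 5. With WT5 and all subclones in 1 fit of 24 libraries there were 10 and 3 in subclone 1, 6 lower in subclone 2, 28 higher in subclone 3, 5 lower in subclone 4 and 19 higher in subclone 5. With length and GC trends taken out there were 14 higher in subclone 2, 5 lower in subclone 3 and 19 higher in subclone 5. The lower members of subclone 3 numbered 4 with a pseudocount of 1, a mean TPM of at least 1 or rescaling over nuclear protein-coding genes.

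Leaving out 1 library gave 10 to 20 higher and 5 to 7 lower in subclone 1, 6 to 13 and 5 to 8 in subclone 2, 7 to 21 and 2 to 3 in subclone 3, 23 to 32 and 4 to 10 in subclone 4, and 3 to 12 and 2 to 5 in subclone 5. The 6 members called among the subclones became 3 with a pseudocount of 1, 3 without a filter, 2 with median-centred log2(TPM), 11 at an adjusted p below 0.05, 11 with trends taken out and 4 to 8 with 1 library left out. The ratios of summed TPM, WT5 over polyclonal, moved on rescaling over nuclear protein-coding genes to 0.995 for complex I (no longer above 1). They moved to 0.717, 1.11, 1.099 and 1.40 for complexes II to V, and complex V was 1.49 with pseudogenes. With 1 library left out the ratios were 1.16 to 1.21, 0.835 to 0.862, 1.29 to 1.35, 1.27 to 1.34 and 1.61 to 1.69 for complexes I to V.

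Replicate numbers did not pair the libraries, since correlations of same-numbered libraries ranged from -0.28 to 0.13. With the replicate number as a block there were 25 higher and 30 lower members against the polyclonal line, 3 and 2, 3 and 3, 1 and 2, 24 and 5, and 2 and 2 in subclones 1 to 5, and 4 among the subclones. Of 526 refits of single named members under these settings, 501 kept direction and call, 24 lost the call and 1 turned direction, and of 344 with 1 library left out, 6 lost the call. The 1 that turned was Atp5g2, from 0.21 to -0.12 when summed with its pseudogenes. Other than these, the causes of the changes were not tested. TPM gives no depth, so no detection limit can be set for the isoforms listed at 0.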
